A study of Homo sapiens with 6 samples.

Results

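The clustered histone genes are the multi-copy genes that encode the linker histone H1 and the core histones H2A, H2B, H3 and H4. They were taken from the count tables by symbol, as every row whose name begins with HIST and a cluster number from 1 to 4, which gave 73 of 26485 gene symbols. By family these are 6 genes of H1, 18 of H2A, 20 of H2B, 14 of H3 and 15 of H4. Among them HIST1H2APS1, HIST2H2BA and HIST2H2BC are typed as pseudogenes in the GENCODE v29 annotation. They are counted by name with H2A or H2B throughout. The newer naming scheme for these genes matched no row. RNA was sequenced from AF22, an established human line of neuroepithelial-like neural stem cells made from induced pluripotent stem cells, in 6 libraries. In 3 libraries the genotype label is COMMD3/COMMD3-BMI1 knockdown. The other 3, shControl, carry a control short hairpin RNA and have the genotype WT. The labels name no reagent, time or dose for the knockdown, all libraries come from 1 line, and nothing says that the replicates were separate cultures. The p-values therefore reflect how far these libraries scatter, and that scatter may be technical.

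Histones are the proteins that DNA is wound around. The core histones form the nucleosome and H1 binds the DNA between nucleosomes. Most clustered histone genes are replication-dependent: they are transcribed in S phase, when new DNA has to be packaged, and their mRNAs end in a short hairpin, the histone stem-loop, in place of a poly(A) tail. The stem-loop-binding protein SLBP and the U7 small nuclear ribonucleoprotein act on that end, and NPAT with CASP8AP2 (FLASH) act in the histone locus body, the nuclear site where these mRNAs are made. Some clustered genes are known to also give longer, polyadenylated mRNAs, which are kept in cells that do not divide. The labels give total RNA as the molecule and do not say whether polyadenylated RNA was selected for the libraries.

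The libraries held between 7294687 and 11579849 counts. COMMD3, the labelled target, was at 12.9, 11.3 and 10.5 CPM (edgeR's library-scaled counts, with library sizes adjusted by TMM, a scaling that trims extreme genes) in knockdown libraries and at 31.7, 29.7 and 27.6 CPM in control libraries, which is -1.37 on the log2 scale (SE 0.0996, adjusted p = 2.34e-12 by edgeR). BMI1 averaged 104.8 ± 1.79 CPM in knockdown and 110.2 ± 2.41 CPM in control (SD, n = 3 each) and did not pass, and COMMD3-BMI1, which joins both genes in 1 transcript, was listed at 0 in all 6 libraries. How reads that fit more than 1 gene were counted is not given, so this 0 does not show that the joined transcript was absent. All 10 listed neural stem cell markers were expressed enough to be tested, of which 1 rose (10%) and 4 fell (40%), where 15.3% of all tested genes rose and 18.1% fell, with a summed level of 2583 to 2688 CPM in knockdown libraries and 2601 to 2770 CPM in control libraries.

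Histone genes of the clusters were scarce in every library. All 73 together held 1128, 918 and 1105 counts in knockdown libraries and 1290, 966 and 775 in control libraries, which is between 0.0106% and 0.012% of a library. Their summed level was 112.9 ± 5.68 CPM in knockdown and 110.1 ± 1.41 CPM in control (SD, n = 3 each), and the ranges of the groups overlapped. In bulk RNA, fewer cells in a given state and less RNA per cell cannot be told apart. Of the 73 genes, 13 were at 0 in all libraries, 16 had between 1 and 9 counts over all 6 libraries, and 13 passed the filter on low counts and were tested. The 5 most counted genes held 64.7% of all histone gene counts, and the 13 tested genes 84.8%. Counts and CPM are not divided by transcript length, so an order of genes in either is an order of reads and not of transcript levels.

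**Figure D1:**
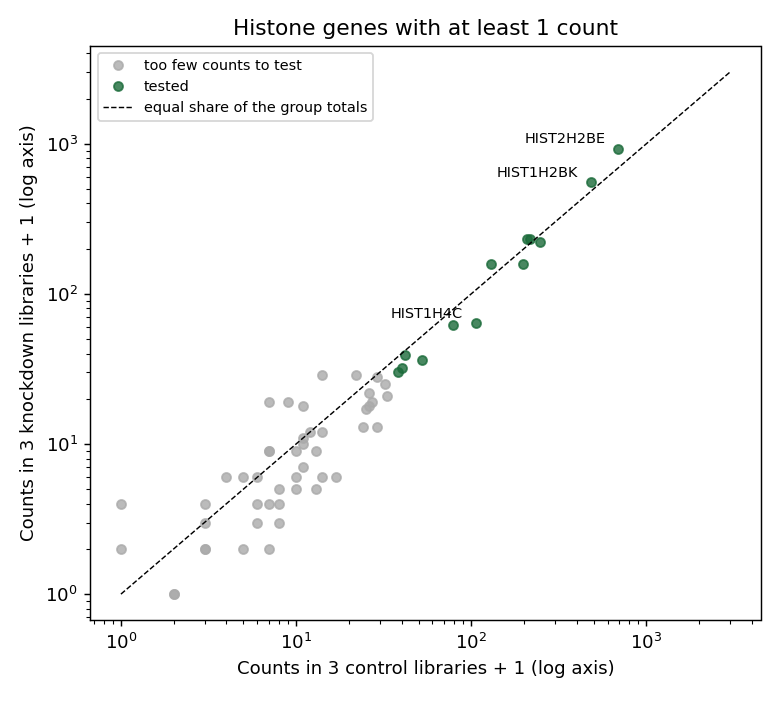
Counts of each clustered histone gene with at least 1 count, summed over 3 knockdown libraries (vertical) and over 3 control libraries (horizontal), with 1 added and both axes logarithmic. Green points are the 13 tested genes and grey points the genes with too few counts to test, and the dashed line is an equal share of the group totals. HIST2H2BE, with 923 counts in knockdown and 690 in control, lies above the line and HIST1H4C, with 63 and 105, below it.

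The genes at or near 0 are of different kinds. HIST2H2AA3 and HIST2H2AA4 (H2A), HIST2H3A and HIST2H3C (H3) and HIST2H4A and HIST2H4B (H4) are pairs of near-identical copies on chromosome 1. Between 0% and 2.9% of the 50-base windows in their GENCODE v29 transcripts occur in no other gene, and these 6 genes held 2 counts in all libraries together, with 4 of them at 0. The sources used here do not say how reads that match several places were treated, so a low count does not show that these copies were silent. Of the 13 genes at 0, 9 had 95% or more of their windows to themselves, among them HIST1H1A, HIST1H1T and the H2A and H2B pair HIST1H2AA and HIST1H2BA. The last 3 are known as testis histones. For a gene at 0, 3 counts over the group allow up to 0.108 CPM in knockdown and 0.109 CPM in control, counting error only.

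All 73 symbols were found in GENCODE v29 (GRCh38, the build the labels name as hg38). The HIST1 cluster lies on chromosome 6 in 2 blocks, 35 genes from 25726132 to 26285638 and 21 genes from 27125897 to 27893843. On chromosome 1, 12 HIST2 genes lie from 149782689 to 149887916, HIST2H2BA lies apart from 121108210 to 121117257, and 3 HIST3 genes lie from 228424845 to 228460470. HIST4H4 is alone on chromosome 12, from 14767999 to 14771131. The HIST1 genes held 63% of the histone gene counts, the HIST2 genes 29.6% and the HIST3 genes 7.33%.

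Knockdown and control differed past the threshold for 2 of the 13 tested histone genes. HIST2H2BE, an H2B gene, rose, and HIST1H4C, an H4 gene, fell. That is 15.4% of the tested histone genes, against 33.3% of all 13632 tested genes (quasi-likelihood test of edgeR, adjusted p under 0.05 after Benjamini and Hochberg) and 23.3% of the 5193 tested genes within the same range of mean abundance. By direction, 15.3% of all tested genes were higher and 18.1% lower in knockdown. With 13 genes tested such a share is coarse, and it is not read as a difference from the background. The other 11 tested histone genes did not pass. With 1 library left out the calls changed for 3 genes: HIST1H2BK also passed without control replicate 1, HIST2H2AC also passed without knockdown replicate 1, and HIST1H4C no longer passed without control replicate 3. For 3 of the 13 the groups did not overlap in CPM, where 44.3% of all tested genes show no overlap. The fitted log2 fold changes lay above 0 for 5 genes and below 0 for 8, with a median of -0.20 where that of all tested genes was 0.00.

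**Figure D2:**
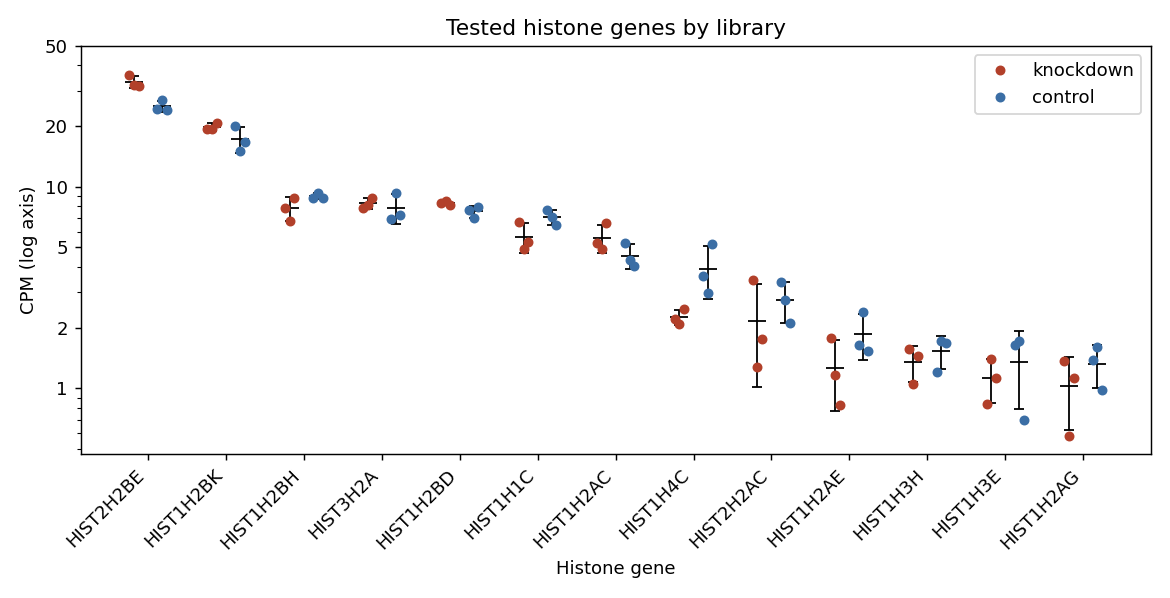
CPM of the 13 tested histone genes in each library (dots, logarithmic axis), knockdown in red and control in blue, with the mean and SD of 3 libraries as bars. HIST2H2BE is the most counted, at 31.5 to 35.7 CPM in knockdown and 24.1 to 26.9 CPM in control, and the knockdown libraries of HIST1H4C lie below all control libraries.

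HIST2H2BE encodes an H2B protein and is known to give a long polyadenylated mRNA as well as the stem-loop form. It lies on the minus strand of chromosome 1 from 149884459 to 149886652. It had 341, 276 and 306 counts in knockdown libraries and 283, 235 and 172 in control libraries. In CPM, the knockdown libraries were at 35.7, 32.1 and 31.5, against 24.4, 26.9 and 24.1 in the control libraries. All 3 knockdown libraries were above the highest control library. The means were 33.1 ± 2.28 CPM in knockdown and 25.1 ± 1.5 CPM in control (SD, n = 3 each), 1.32-fold higher in knockdown (log2 fold change 0.40, SE 0.08, adjusted p = 0.000248 by edgeR). Of its transcript windows, 91.9% occur in no other gene, and no other annotated exon overlaps it.

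HIST1H4C encodes histone H4 and lies on the plus strand of chromosome 6 from 26103876 to 26104310. It had 21, 18 and 24 counts in knockdown libraries and 42, 26 and 37 in control libraries. In CPM, the knockdown libraries were at 2.20, 2.10 and 2.47, against 3.63, 2.97 and 5.18 in the control libraries. The groups did not overlap, and control replicate 3 was the highest of the 6. The means were 2.25 ± 0.193 CPM in knockdown and 3.93 ± 1.14 CPM in control (SD, n = 3 each), or -0.76 on the log2 scale (SE 0.236, adjusted p = 0.0135 by edgeR). The call rested on that library and on the tool: without control replicate 3 the log2 fold change was -0.56 (adjusted p = 0.0917 by edgeR), and DESeq2 gave an adjusted p of 0.0713. All of its transcript windows occur in no other gene, although the H4 proteins of the family are nearly alike.

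**Figure D3:**
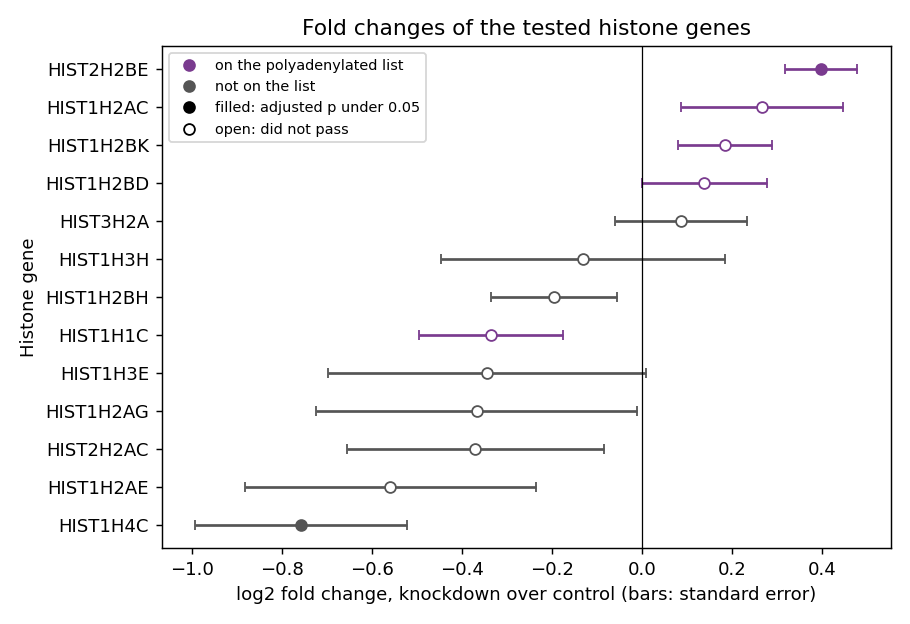
Log2 fold change, knockdown over control, of the 13 tested histone genes with the standard error as bars. Filled points passed at an adjusted p under 0.05 (HIST2H2BE, 0.40, and HIST1H4C, -0.76), and purple marks the 5 tested genes of the list of clustered genes known to give polyadenylated mRNAs.

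The H2B genes held 62.3% of all histone gene counts. Besides HIST2H2BE, HIST1H2BK, HIST1H2BH and HIST1H2BD were tested. HIST1H2BK was at 19.3, 19.4 and 20.8 CPM in knockdown libraries and 19.9, 15.1 and 16.7 CPM in control libraries. The groups overlapped through control replicate 1, and the gene did not pass (log2 fold change 0.18, SE 0.104, adjusted p = 0.177 by edgeR). Without control replicate 1 it passed (log2 fold change 0.33, adjusted p = 0.0321 by edgeR). In GENCODE v29 its exon holds 381 bases, of which 25.9% of windows occur in no other gene, so its reads may be mixed with those of near copies such as H2BFS. HIST1H2BD was at 8.27, 8.50 and 8.13 CPM in knockdown libraries and 7.68, 6.97 and 7.99 CPM in control libraries. Its groups did not overlap, but the difference was small beside its error (log2 fold change 0.14, SE 0.139, adjusted p = 0.478 by edgeR). HIST1H2BH was at 7.85, 6.75 and 8.85 CPM in knockdown libraries and 8.81, 9.37 and 8.83 CPM in control libraries, with a log2 fold change of -0.20 (SE 0.14, adjusted p = 0.299 by edgeR).

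Of 18 H2A genes, 5 were tested and none passed with all libraries. By edgeR none of them had an unadjusted p under 0.05, and DESeq2 called none either. HIST3H2A, the H2A gene with the most counts, was at 7.85, 8.15 and 8.85 CPM in knockdown libraries and 6.91, 9.37 and 7.29 CPM in control libraries (log2 fold change 0.09, SE 0.147, adjusted p = 0.687 by edgeR). The control libraries enclosed all 3 knockdown libraries. HIST1H2AC was at 5.24, 4.89 and 6.58 CPM in knockdown libraries and 5.27, 4.34 and 4.06 CPM in control libraries (log2 fold change 0.27, adjusted p = 0.266 by edgeR). HIST1H2AE and HIST1H2AG, each with 86 counts or fewer over 6 libraries, had log2 fold changes of -0.56 and -0.37 with SE of 0.323 and 0.357.

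HIST1H1C, the H1 gene with the most counts and the one tested, was at 6.70, 4.89 and 5.35 CPM in knockdown libraries and 7.68, 7.09 and 6.45 CPM in control libraries. It encodes the linker histone H1.2. Knockdown replicate 1 lay above the lowest control library, and the gene did not pass (log2 fold change -0.34, SE 0.161, adjusted p = 0.11 by edgeR). HIST1H3H, the H3 gene with the most counts, was at 1.57, 1.05 and 1.44 CPM in knockdown libraries and 1.21, 1.71 and 1.68 CPM in control libraries (log2 fold change -0.13, SE 0.316, adjusted p = 0.792 by edgeR). HIST1H3E, the other tested H3 gene, had a log2 fold change of -0.35 (SE 0.354, adjusted p = 0.485 by edgeR). A standard error is not a limit of detection, and changes of either H3 gene larger than these errors could also have been missed at this depth.

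Per length, the order of the tested genes was led by HIST1H2BK. Over GENCODE v29 exon bases it had 52.1 CPM per kb in knockdown and 45.2 in control, followed by HIST2H2BE with 15.1 CPM per kb in knockdown and 11.5 in control. HIST1H1C (8.79 in knockdown and 11.0 in control), HIST1H2BD (9.53 and 8.67) and HIST3H2A (9.25 and 8.78) came next in CPM per kb, and HIST1H3E was last with 0.419 in knockdown and 0.505 in control. The annotation used for counting is not known from the labels. The place of HIST1H2BK depends on its short exon in GENCODE v29, since RefSeq lists transcripts for it across a wider span, and the libraries of the 3 genes after HIST2H2BE overlapped in knockdown.

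Summed by family, the levels differed in direction. The 20 H2B genes were at 75.5, 72.2 and 73.9 CPM in knockdown libraries and 66.7, 63.7 and 65.3 CPM in control libraries. Without HIST2H2BE the remaining 19 averaged 40.7 ± 1.43 CPM in knockdown and 40.1 ± 2.88 CPM in control (SD, n = 3 each), with overlap. The 15 H4 genes were at 6.91, 5.35 and 5.04 CPM in knockdown libraries and 7.86, 7.66 and 9.53 CPM in control libraries. Without HIST1H4C the other 14 averaged 3.51 ± 1.09 CPM in knockdown and 4.42 ± 0.237 CPM in control, and knockdown replicate 1 was the highest of all 6 libraries. The 6 H1 genes were at 7.02, 5.24 and 6.69 CPM in knockdown libraries and 8.98, 8.34 and 8.97 CPM in control libraries, so the groups did not overlap. HIST1H1C held 355 of their 418 counts, and by itself it overlapped between the groups and did not pass. The H2A genes (21.8 ± 2.62 CPM in knockdown and 21.8 ± 2.32 CPM in control) and the H3 genes (5.21 ± 0.125 CPM in knockdown and 6.03 ± 0.734 CPM in control) overlapped between the groups. These sums are descriptions of the libraries and were not tested.

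**Figure D4:**
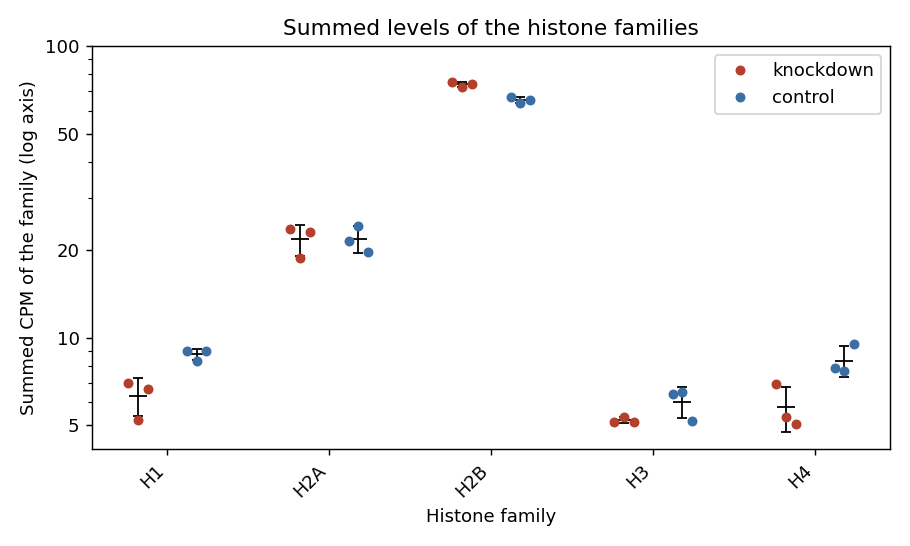
Summed CPM of all genes of each histone family in each library (dots, logarithmic axis), knockdown in red and control in blue, with the mean and SD of 3 libraries as bars. The H2B sum lies higher in all knockdown libraries (72.2 to 75.5 CPM) than in control libraries (63.7 to 66.7 CPM), and the H1 and H4 sums lie lower.

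The 60 genes left out by the filter had at most 14 counts in any library. Together they held 16.02, 14.55 and 14.91 CPM in knockdown libraries and 17.78, 18.17 and 21.02 CPM in control libraries, without overlap. Single genes of this group cannot be read with confidence. With no filter, 47 of them entered the test and none passed (edgeR), while 4 had an unadjusted p under 0.05. The share of all genes with an unadjusted p under 0.05 was not worked out, so no result is read from these 4. Of these 4, HIST1H1D (H1.3) had 12 counts over the knockdown libraries and 28 over the control libraries, and HIST2H2BF had 5 and 16. In the other direction, HIST1H4J had 18 counts in knockdown and 6 in control, and HIST1H2BC 28 and 13. Without a filter, 4547 of 19815 genes passed (22.9%), against 4545 of 13632 with it. Adding the genes with few counts hardly changed the number of calls, so 22.9% is not a background for the 47. The share called among genes with few counts alone was not worked out. For 8 of the 47 with a count the groups did not overlap, 5 lower and 3 higher in knockdown. Over all 6183 genes with a count that the filter left out, the share without overlap was 8.17%, and the number of counts per gene was not matched between the sets.

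The 8 listed genes known to give polyadenylated mRNAs held 61.8% of the histone gene counts. They were at 77.2, 71.9 and 73.9 CPM in knockdown libraries and 66.1, 61.8 and 61.9 CPM in control libraries. Without HIST2H2BE they averaged 41.2 ± 1.31 CPM in knockdown and 38.2 ± 3.38 CPM in control (SD, n = 3 each), and the groups overlapped. The other 65 genes were at 40.9, 34.9 and 39.8 CPM in knockdown libraries and 45.2, 48.6 and 46.7 CPM in control libraries. Without HIST1H4C these averaged 36.3 ± 3.09 CPM in knockdown and 42.9 ± 2.34 CPM in control, and all 3 knockdown libraries were below all control libraries. Among the tested genes, 4 of the 5 on the list had a fitted log2 fold change above 0 and HIST1H1C below it, with 1 passing. Of the 8 tested genes outside the list, 7 lay below 0, HIST3H2A above it, and 1 passed. Being outside the list does not mean that a gene gives only the stem-loop form. Of the genes outside it, HIST1H2BH and HIST3H2A have annotated transcripts that run 1640 and 390 bases past the stem-loop. Whether the 2 sets differ was not tested.

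The end of the mRNA is where the polyadenylated and the stem-loop forms part. The stem-loops of the 8 tested genes in which one was found are shown because they mark that point. They were sought with a fixed pattern of 16 bases and are not part of the annotation. HIST1H4H, which was not tested, is added for the H4 family. A stem-loop was found after the stop codon in the GENCODE v29 transcripts of 31 of the 70 genes with a coding transcript, 22 to 67 bases beyond the stop codon. Most of the other transcripts are annotated only as far as the stop codon. HIST1H4C, with 51 bases after it, and HIST1H3E, with up to 1908, had no match to the pattern. In the sequences, written 5′ to 3′ as DNA, capitals are the paired arms and the lower-case letters between them the loop.
HIST2H2BE: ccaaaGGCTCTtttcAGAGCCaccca
HIST1H2BH: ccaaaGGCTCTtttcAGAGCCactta
HIST1H2BD: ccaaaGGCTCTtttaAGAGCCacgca
HIST1H2AC: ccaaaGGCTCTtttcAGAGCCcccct
HIST1H2AE: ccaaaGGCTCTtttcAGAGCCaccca
HIST1H2AG: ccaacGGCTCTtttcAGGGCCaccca
HIST3H2A: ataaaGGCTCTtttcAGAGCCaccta
HIST1H3H: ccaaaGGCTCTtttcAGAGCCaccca
HIST1H4H: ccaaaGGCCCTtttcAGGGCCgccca
The arms GGCTCT and AGAGCC were shared by 22 of the 31 genes, all of them H2A, H2B or H3. The 8 H4 genes, of which HIST1H4H is shown, all had GGCCCT and AGGGCC, and HIST1H2AG paired the first arm of the one kind with the second arm of the other. In HIST1H2AG, with 66 counts over all libraries, the annotated transcript runs 1761 bases past the stem-loop. In HIST2H2BE it runs 1729 bases past it, in HIST1H2BH 1640, in HIST1H2AC up to 1128, in HIST1H3H 769 and in HIST3H2A 390. In all, 22 genes have a transcript that runs 100 bases or more past it, and these held 53.5% of the histone gene counts. Per library and kb of exon their median was 3.25 counts. It was 3.81 for the 9 genes with no such tail and 4.35 for the 39 coding genes in which no stem-loop was found. These classes do not part polyadenylated from other mRNAs. Of genes on the polyadenylated list, HIST1H2BD (438 counts) is among the 9, and HIST1H2BK (1035) and HIST1H1C (355) are among the 39. The 22 include the near-identical copies HIST2H3A, HIST2H3C, HIST2H4A and HIST2H4B, all at 0. Whether the tail goes with the counts was not tested. The counts alone do not tell the 2 forms of an mRNA apart.

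Many H2A and H2B genes stand in pairs that are read in opposite directions from a shared stretch of promoter. In GENCODE v29, 13 pairs of the 73 genes start within 400 bases of each other in this way, and all but 1 of them, the H3 and H2B pair HIST1H3J and HIST1H2BO, join an H2A and an H2B gene. The counts of paired genes were often unequal. In 5 pairs the larger count over 6 libraries was 5 times the smaller or more. HIST3H2A held 231 counts in knockdown and 214 in control, and its partner HIST3H2BB 5 and 3. HIST1H2BK held 553 and 482, and HIST1H2AH 8 and 6. HIST1H2AC held 156 and 128, and HIST1H2BC 28 and 13. These are counts that have not been divided by length.

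HIST2H2BE and HIST2H2AC are the pair in which both genes were tested, and their starts lie 323 bases apart. HIST2H2AC, an H2A gene on the plus strand from 149886975 to 149887364, was at 3.46, 1.28 and 1.75 CPM in knockdown libraries and 3.37, 2.74 and 2.10 CPM in control libraries. In GENCODE v29, 69.5% of its transcript windows occur in no other gene, and the gene it shares most windows with is HIST2H2AA3, so its reads may be mixed with those of near copies. Knockdown replicate 1 was the highest of all 6 libraries and the other 2 knockdown libraries were the lowest. With all libraries the gene did not pass (log2 fold change -0.37, SE 0.285, adjusted p = 0.337 by edgeR), and without knockdown replicate 1 it did (log2 fold change -0.88, adjusted p = 0.0342 by edgeR). HIST2H2BE was called higher in every one of these fits. The difference between the partners was not tested.

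The promoters of 2 such pairs are printed because 1 gene of each is among the most counted histone genes. Both windows come from RefSeq (GRCh38.p14) and run from 250 bases before to 50 bases after the start, 5′ to 3′ on the strand of the gene. Capitals mark CCAAT, the octamer ATTTGCAT and TATAAA, each on either strand, and no 2 matches in these windows overlap. HIST2H2BE (RefSeq symbol H2BC21) is at chr1:149886633-149886932 on the minus strand, a stretch that the window of its partner HIST2H2AC shares, and HIST3H2A (H2AC25) at chr1:228457824-228458123 on the minus strand.
HIST2H2BE: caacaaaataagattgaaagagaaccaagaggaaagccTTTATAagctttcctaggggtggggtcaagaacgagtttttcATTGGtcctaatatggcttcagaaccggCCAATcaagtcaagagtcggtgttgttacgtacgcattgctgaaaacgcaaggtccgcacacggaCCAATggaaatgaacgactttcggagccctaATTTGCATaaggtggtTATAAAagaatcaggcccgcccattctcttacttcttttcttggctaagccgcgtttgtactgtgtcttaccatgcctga
HIST3H2A: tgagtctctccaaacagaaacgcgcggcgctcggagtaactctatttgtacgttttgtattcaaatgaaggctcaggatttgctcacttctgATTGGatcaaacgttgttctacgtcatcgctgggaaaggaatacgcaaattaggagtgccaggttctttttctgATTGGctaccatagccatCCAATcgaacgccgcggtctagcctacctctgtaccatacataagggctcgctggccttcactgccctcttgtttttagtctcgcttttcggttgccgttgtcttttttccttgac
The window of HIST2H2BE holds 3 CCAAT, 1 octamer and 2 TATAAA matches, and that of HIST3H2A 3 CCAAT matches and none of the other motifs. RefSeq windows were found for 60 of the 73 genes, 64 windows in all. Of these, 84.4% hold CCAAT, 34.4% the octamer and 67.2% TATAAA, against 34.6%, 1.8% and 11.5% of 35116 windows of the same length over all genes. The windows are not all separate stretches of DNA. Those of HIST1H2BD, and those of HIST1H2BK, overlap almost fully, HIST1H3D and HIST1H2AD share one, and divergent pairs overlap. Some matches are therefore counted more than once. A match is a run of letters and does not show binding.

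Genes that make and handle histone mRNA and protein were read from the same fit, by lists. Of 23 genes of histone pre-mRNA 3′ end processing, 3 fell (13%) and 1 rose (4.35%), while 19 missed the threshold. Of all tested genes 18.1% fell and 15.3% rose. The share of the list that fell was near that background, and the number that rose changed with the processing. The median of the list was -0.03 on the log2 scale. With library-size scaling 4 genes rose, and without control replicate 2 it was 2. CASP8AP2, the FLASH protein needed for histone mRNA processing, was at 58.7, 62.5 and 65.2 CPM in knockdown libraries and 94.7, 83.1 and 95.8 CPM in control libraries (log2 fold change -0.55, SE 0.0566, adjusted p = 4.41e-09 by edgeR). NPAT, the coactivator of histone gene transcription, was at 37.9, 37.7 and 42.1 CPM in knockdown libraries and 47.66, 50.28 and 50.02 CPM in control libraries (log2 fold change -0.32, SE 0.0643, adjusted p = 0.000215 by edgeR). SRRT (ARS2), which links the cap-binding complex to 3′ end formation, fell by 0.19 on the log2 scale. In all 3 of these genes the groups did not overlap. SYMPK, the scaffold protein symplekin, rose (log2 fold change 0.15, SE 0.046, adjusted p = 0.0127 by edgeR). Its call was lost by DESeq2 (adjusted p = 0.0592), without knockdown replicate 3 (adjusted p = 0.0707) and without control replicate 1 (adjusted p = 0.054). SLBP was at 70.5, 67.3 and 65.7 CPM in knockdown libraries and 69.8, 67.9 and 66.1 CPM in control libraries, and its log2 fold change of -0.01 (SE 0.0523, adjusted p = 0.943 by edgeR) took the other sign with library-size scaling.

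Of 11 tested histone variant genes, which lie outside the clusters and most of which give polyadenylated mRNAs, 6 fell and none rose. That is 54.5%, against 18.1% of all tested genes that fell, and the list had its median at -0.13 on the log2 scale. H1F0, the linker histone of cells that slow their division, was at 91.9, 89.4 and 89.6 CPM in knockdown libraries and 110.1, 108.4 and 117.3 CPM in control libraries (log2 fold change -0.31, SE 0.0466, adjusted p = 5.82e-06 by edgeR). H2AFX, the H2A variant that is phosphorylated at DNA breaks, averaged 154.2 ± 8.71 CPM in knockdown and 189.0 ± 1.2 CPM in control (SD, n = 3 each; log2 fold change -0.29, adjusted p = 6.61e-06 by edgeR). H3F3A, which encodes H3.3 and has near-identical pseudogenes that make its count uncertain, averaged 19.0 ± 1.39 CPM in knockdown and 24.6 ± 1.68 CPM in control. H2AFV fell by 0.16 on the log2 scale and no longer passed once knockdown replicate 3 was left out (adjusted p = 0.0594 by edgeR). Without that library 3 of these genes fell.

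Histone chaperones carry histones to DNA and place them there. Of 26 tested, 9 fell (34.6%) and 17 missed the threshold. The median was -0.06 on the log2 scale. Of all tested genes 18.1% fell and 15.3% rose. No chaperone rose with TMM scaling and all libraries, while SUPT6H passed as higher with library-size scaling, with the replicate block, without knockdown replicate 1 and without control replicate 3. ATRX, a remodeller that deposits H3.3 with DAXX, was at 168.2, 177.7 and 174.3 CPM in knockdown libraries and 279.9, 259.8 and 283.9 CPM in control libraries (log2 fold change -0.66, SE 0.0452, adjusted p = 5.13e-13 by edgeR). MMS22L and TONSL, which form a complex that binds newly made H3 and H4 at replication forks, averaged 53.6 ± 2.67 and 57.4 ± 1.66 CPM in knockdown, against 86.1 ± 10.7 and 73.3 ± 3.12 CPM in control (SD, n = 3 each). Their log2 fold changes were -0.70 and -0.35, and the groups did not overlap for either gene. SSRP1, a subunit of the FACT complex, fell by 0.29 on the log2 scale.

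Of these 4 lists, that of S phase had the highest share of called genes. Of 38 tested genes of S phase and DNA replication, 26 fell (68.4%), none rose and 12 missed the threshold, where 18.1% of all tested genes fell. The shares of all tested genes given beside these 4 lists were not matched for abundance. Called shares vary with abundance: 33.3% of all tested genes were called, and 23.3% of those in the abundance range of the tested histone genes. The median of the list was -0.21 on the log2 scale. MCM2 is on this list and on that of the chaperones. RFC3, a subunit of the clamp loader, averaged 59.5 ± 2.92 CPM in knockdown and 92.9 ± 3.69 CPM in control (SD, n = 3 each; log2 fold change -0.65, SE 0.0523, adjusted p = 2.71e-11 by edgeR). GINS4, of the replicative helicase, averaged 79.0 ± 3.51 CPM in knockdown and 114.5 ± 6.14 CPM in control (log2 fold change -0.53, adjusted p = 7.57e-10 by edgeR). POLA2, of the polymerase that starts each new strand, and MCM4, of the replicative helicase, fell by 0.40 and 0.32 on the log2 scale. The summed level of the list was 4249 to 4439 CPM in knockdown libraries and 4971 to 5127 CPM in control libraries. Beside it, the summed level of all clustered histone genes overlapped between the groups, HIST1H4C fell and HIST2H2BE rose. The part of the S phase genes in the histone gene differences was not tested.

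**Figure D5:**
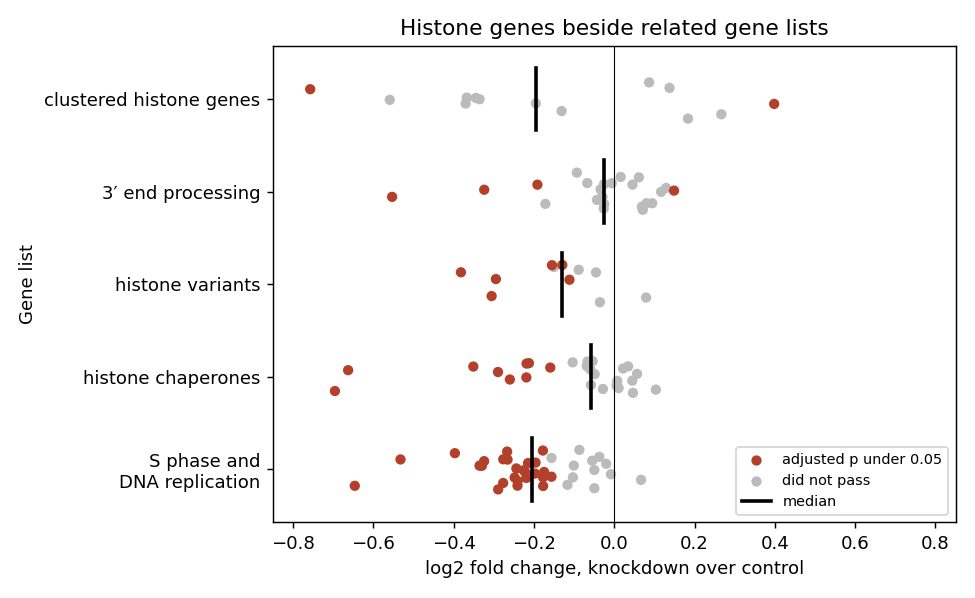
Log2 fold change, knockdown over control, of each tested gene in 5 lists, from the clustered histone genes at the top to S phase and DNA replication at the bottom. Red points passed at an adjusted p under 0.05, grey points did not, and the black bar is the median of the list (-0.20 for the histone genes and -0.21 for S phase and DNA replication).

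Markers of other cells were read beside these values, where 15.3% of all tested genes rose and 18.1% fell. With 3 to 7 tested genes a list, such shares are coarse. In the list of astrocyte and oligodendrocyte markers 3 of 5 tested genes fell, and the summed level of all 8 was 195.4 to 199.1 CPM in knockdown libraries and 244.8 to 251.3 CPM in control libraries, with GFAP and SOX10 at 0 in all. In the list of pluripotent cell markers 1 of 3 tested genes rose and 1 fell, with sums of 635.1 to 693.2 CPM in knockdown and 531.3 to 535.5 CPM in control, and with TDGF1 at 0. LIN28A, an RNA-binding protein that neural progenitors can also express, averaged 456.8 ± 25.4 CPM in knockdown and 303.6 ± 6.83 CPM in control (SD, n = 3 each) and accounts for the higher sum. POU5F1 averaged 45.7 ± 4.02 CPM in knockdown and 59.1 ± 2.28 CPM in control, and DPPA4 did not pass. In the neuron list 1 of 4 tested genes fell, with sums of 597.3 to 623.9 CPM in knockdown and 640.3 to 691 CPM in control, and with STMN2 and NEUROD1 at 0. In the list of fibroblasts and mesenchyme 1 of 7 tested genes rose and 2 fell, and the sums overlapped. The part of these markers in the differences of the histone genes was not tested.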

How the data were processed

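The authors deposited 1 table per sample with raw read counts per gene symbol. Tools listed in the submitters' processing notes are STAR 2.7.10a, Trim Galore 0.6.6 and bedtools, with the build hg38. Per the labels' protocols, each library was made from 700 ng of total RNA with a directional kit. How reads were counted, on which annotation and with which strand setting, is not given in the sources used here.

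Of 26485 symbols, 13632 passed filterByExpr in edgeR 4.0.16 (under R 4.3.3). TMM factors ran from 0.9797 to 1.015. Knockdown was set against control with glmQLFTest, the quasi-likelihood test of edgeR, without covariates. The Benjamini-Hochberg adjustment covered all 13632 genes and the threshold was 0.05. The standard error is the size of the log2 fold change divided by the square root of F. Totals per library ran from 7294687 to 11579849 counts, and floors of 3 counts from 0.259 to 0.42 CPM per library.

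The histone genes, the lists and the rule for named genes were chosen with earlier results of these data known. The rule named COMMD3, the called histone genes, the most counted gene of each family, both members of a divergent pair with a call, SLBP, NPAT and up to 4 called genes per list. Other genes were named after their values were seen. Alternatives were RLE and library-size scaling, no filter, 1 CPM or more in 3 libraries, DESeq2 1.42.0, the replicate number as a block, and leaving out each library. No pair of replicates agreed within sampling noise (chi-square of 1.248 to 2.055 per degree of freedom). Coordinates, transcripts and 50-base windows come from GENCODE v29 and promoters from RefSeq, read with Python 3.11.15 and pandas 2.3.3.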

Additional observations from a re-analysis of the deposited data

How the results depend on the processing

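HIST2H2BE kept its direction and its call in all 12 alternatives, with log2 fold changes of 0.34 to 0.45. HIST1H4C kept its direction in all 12 and lost its call in 2. The number of histone genes called lower was 1, but 0 by DESeq2 and between 0 and 2 with 1 library left out. The number called higher was 1, and between 1 and 2 with 1 library left out, which also holds for the polyadenylated list. Among genes of 3′ end processing, the number called higher was 1, but 4 with library-size scaling, 0 by DESeq2, and between 0 and 2 with 1 library left out. The number of chaperones called higher was 0, but 1 (SUPT6H) with library-size scaling and between 0 and 1 with 1 library left out. The number of variants called lower was 6, and between 3 and 6 with 1 library left out. The replicate number as a block gave 1 histone gene higher and 1 lower, 3 processing genes higher and 1 chaperone higher. Same-numbered libraries correlated by 0.079, 0.005 and 0.071 in their deviations from the group means over genes. Differently numbered libraries correlated by -0.104 to 0.039. With 3 libraries per group, these values do not settle whether same-numbered libraries shared a culture or batch. Over all genes, 4545 passed, 5248 with the block and 2877 by DESeq2. The sign turned for HIST1H3H without knockdown replicate 2 (from -0.315 to 0.010 over the fits with 1 library left out), for HIST3H2A without control replicate 1 (from -0.022 to 0.235) and for SLBP without knockdown replicate 3 or control replicate 1 (from -0.032 to 0.020) and with library-size scaling (0.014). The cause of these changes was not tested. With 775 to 1290 counts per library over the 73 genes, depth limits what can be read, and small changes of most histone genes were not detectable.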
